A study of Homo sapiens with 12 samples.

Results

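The comparison described here is the response of SHEP cells to activation of MYCN-ER while TCEAL1 was at its usual level. SHEP is an established human neuroblastoma line, and MYCN-ER is the MYCN protein fused to an oestrogen receptor domain that 4-hydroxytamoxifen (OHT) activates. Libraries of polyadenylated RNA came from untreated cells (Ctrl, n = 3) and from cells given OHT at 200 nM (OHT, n = 3), and neither group received doxycycline (Dox). The cells of both groups carried the fusion and a Dox-inducible hairpin against TCEAL1, so an effect of OHT itself and an effect of the activated fusion cannot be told apart. The labels give no treatment times, name no clone, and leave unsaid whether each replicate is a culture of its own, so the p-values cover only the spread between these 6 libraries. The deposited table lists 28576 genes for 12 libraries. Of these, 18095 genes had at least 0.5 CPM (read counts scaled to the same total in each library) in at least 3 of the 6 Ctrl and OHT libraries, and they are the genes compared. The other 6 libraries, with Dox alone (Dox, n = 3) or with both compounds (OHT_Dox, n = 3), serve only as a second background.

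MYCN belongs to the MYC family of transcription factors, which bind DNA as heterodimers with MAX, most tightly at the E-box CACGTG. MYC proteins are known to raise genes of growth and metabolism, among them nutrient transporters and mitochondrial genes, and to lower other genes, and MYCN amplification marks high-risk neuroblastoma. SHEP cells lack MYCN amplification and belong to the mesenchymal type of neuroblastoma cells.

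The 6 libraries held 51598024 to 57694970 reads. TCEAL1 (ENSG00000172465), the target of the uninduced hairpin, stood at 9.71, 9.11 and 10.7 CPM in Ctrl and 8.23, 9.75 and 8.99 CPM in OHT. These ranges overlapped, and the difference did not pass the test (-0.12 ± 0.11, adjusted p = 0.475 by limma). MYCN (ENSG00000134323), for which construct and native reads are not separated, stood at 572, 436 and 479 CPM in Ctrl and 644, 492 and 471 CPM in OHT. Its groups overlapped too (0.11 ± 0.11, adjusted p = 0.555). Of 8 mesenchymal markers, all 8 were tested, with VIM going from 2903 ± 184 to 2761 ± 86 CPM and FN1 from 661 ± 88 to 656 ± 85 CPM, neither called. Among 8 adrenergic markers in the table, 4 were tested, and the others, DBH and CHGA among them, fell short of the expression minimum. Of 5 epithelial markers, 3 were tested and 0 were called. KRT8 and KRT18 were abundant in all 6 libraries, EPCAM also reached the minimum, and CDH1 and KRT19 fell short of it. No haematopoietic or endothelial marker reached the minimum, with summed levels of at most 0.53 and 0.34 CPM in any of the 6 libraries.

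Changes are log2 fold changes ± standard error on the log2(CPM + 0.5) scale, from limma with Benjamini-Hochberg adjustment over the 18095 genes, and a call is an adjusted p below 0.05. With OHT, 2062 genes rose and 1256 fell, which is 18.3% of the genes tested, 11.4% in the upward and 6.94% in the downward direction. The median change over all genes was -0.01, and the median size of a called change was 0.40. Rises made up 62.1% of calls, but 51.9% after correction of each library for transcript length and GC content, when 2132 genes rose and 1977 fell. Among called genes, 109 rises and 6 falls exceeded 2-fold. Over all genes tested, 17.8% had every OHT library above every Ctrl library and 17.1% had every OHT library below. Groups without overlap were also part of the rule for naming genes, so they are no added evidence for a named gene. The count of rises was 1459 without OHT replicate 3. Falls numbered 821 without Ctrl replicate 2, 683 without Ctrl replicate 3 and 679 without OHT replicate 3. Of 271 genes drawn up for naming, 144 overlap another listed gene, and reads of overlapping genes may be counted with each other. In bulk RNA, expression in fewer cells and less RNA per cell cannot be told apart.

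**Figure D1:**
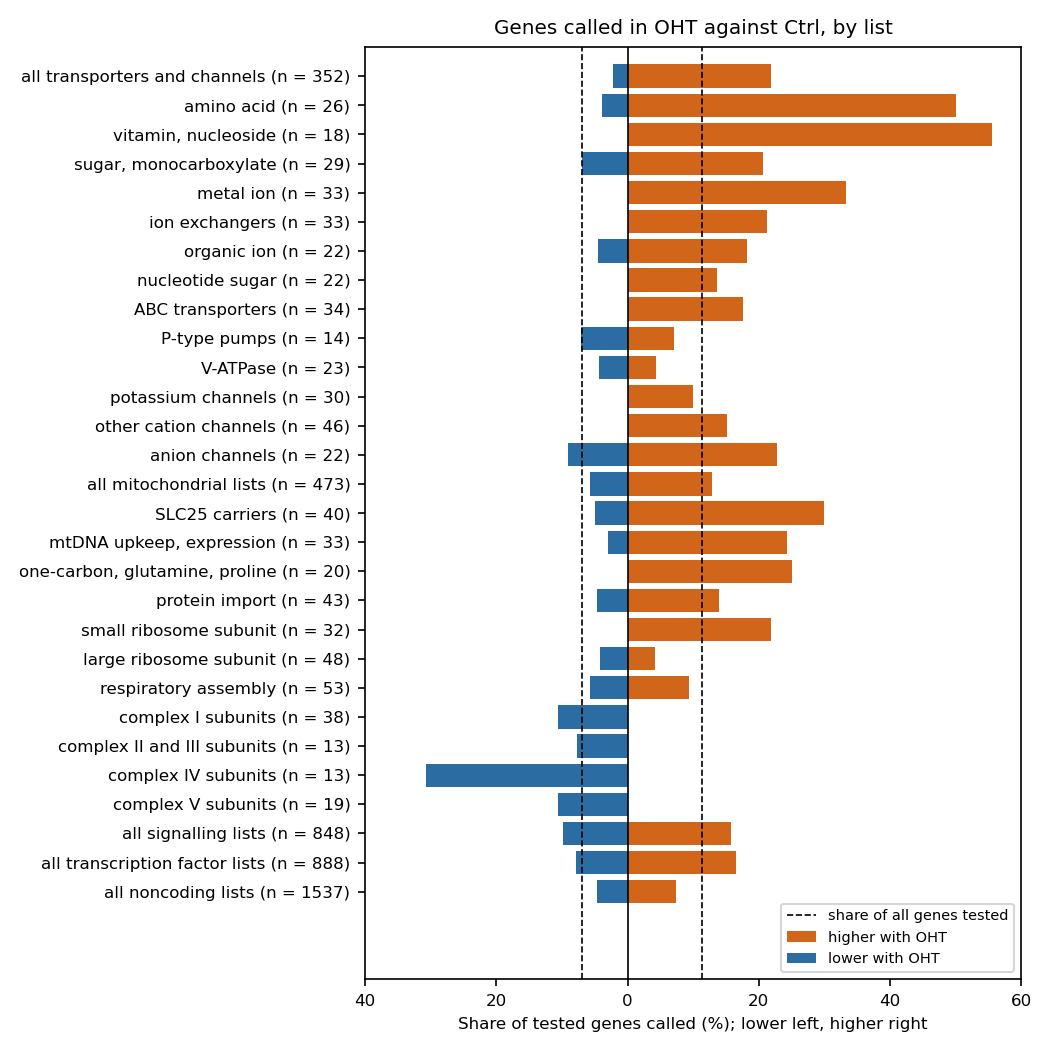
Share of tested genes that rose (orange, to the right) or fell (blue, to the left) with OHT, in percent, for each gene list, with the number of genes tested in brackets. Dashed lines mark the shares over all genes tested, 11.4% for rises and 6.94% for falls. Bars of the amino acid and the vitamin and nucleoside transporters reach past 40% to the right, and bars of the respiratory complexes reach only to the left.

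The E-box CACGTG was counted in promoters, because MYCN and MAX bind it, using RefSeq promoter windows of GRCh38.p14 from 250 bases before to 50 bases after a gene's first listed start. CACGTG reads the same on both strands. A window was matched by symbol for 11583 of the 18095 genes, 2359 of them called. The word stood in 13.8% of windows of genes that rose (203 of 1466, 95% Wilson interval 12.2 to 15.7%). It stood in 6.38% of windows of genes that fell (57 of 893, interval 4.96 to 8.18%). Genes that passed in neither direction held it in 9.41% of windows (868 of 9224, interval 8.83 to 10.0%), and all 35116 windows of the reference in 7.26%. Among rises over 2-fold the share was 17.1% (13 of 76, interval 10.3 to 27.1%), above that of all rises, but with windows of 50 bases to each side of the start it was 5.26%, below the 6.48% of all rises. These intervals cover counting error only, and a matching word is not evidence of binding.

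By gene class, the numbers of windows were small. Among mitochondrial genes that rose the share was 18.4% (9 of 49), among signalling genes 13.4% (15 of 112) and among noncoding genes 12.2% (10 of 82). Transcription factor genes held the word in 11.3% of windows both for rises (13 of 115) and for falls. For transporters the share was 10.3% among rises (6 of 58) and 11.6% among genes that were not called. The following stretches are shown so that the E-box can be seen in its surroundings. They come from up to 2 genes per class, the largest rises that met the rule for naming and hold CACGTG before the start. Noncoding genes that overlap a gene on the opposite strand and all genes of a single chromosome were not considered. The stretches are given 5′ to 3′ on the strand of the gene, with the E-box in capitals.
SLC7A5, chr16:87869605-87869664, minus strand: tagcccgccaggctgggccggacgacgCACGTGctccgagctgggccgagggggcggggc
SLC29A1, chr6:44219365-44219402, plus strand: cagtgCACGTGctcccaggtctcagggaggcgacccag
PDP2, chr16:66880291-66880350, plus strand: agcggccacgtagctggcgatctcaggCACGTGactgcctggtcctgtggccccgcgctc
SLC25A33, chr1:9539412-9539464, plus strand: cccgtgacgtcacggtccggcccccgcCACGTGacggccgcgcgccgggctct
TGFB3, chr14:75983012-75983058, minus strand: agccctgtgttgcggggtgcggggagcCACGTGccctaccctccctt
SMAD1, chr4:145481254-145481305, plus strand: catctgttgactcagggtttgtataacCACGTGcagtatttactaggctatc
BHLHE41, chr12:26125053-26125112, minus strand: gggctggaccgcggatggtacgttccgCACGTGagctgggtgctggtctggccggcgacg
TEF, chr22:41367233-41367292, plus strand: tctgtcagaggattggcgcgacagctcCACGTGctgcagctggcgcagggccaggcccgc
LINC01703, chr1:226083502-226083561, plus strand: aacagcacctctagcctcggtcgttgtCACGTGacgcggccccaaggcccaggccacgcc
The E-box lay 20 bases before the start in TGFB3, 25 in SMAD1, 26 in SLC25A33, 46 in LINC01703 and 48 in BHLHE41. It lay farther away in SLC7A5 (130 bases), TEF (195 bases), PDP2 (197 bases) and SLC29A1 (245 bases).

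Genes for membrane transporters and channels rose more often than they fell. Of 352 tested, 77 rose (21.9%, beside 11.4% of all genes) and 8 fell (2.27%, beside 6.94%), with a median of 0.04. With the length and GC trend removed, 76 rose and 30 fell. Falls among all transporters and channels numbered 5 without Ctrl replicate 3 and 13 without Ctrl replicate 1.

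Plasma membrane transporters of amino acids had more rises than falls. Of 26 tested, 13 rose and 1 fell, with a median of 0.28. The largest rise of the list was that of SLC6A15, a carrier of neutral amino acids (1.98 ± 0.08). SLC7A5 (ENSG00000103257), the LAT1 exchanger that brings large neutral amino acids such as leucine into the cell, stood at 204, 185 and 205 CPM in Ctrl and 437, 415 and 416 CPM in OHT. All 3 OHT libraries were close to each other and far above the Ctrl libraries (1.09 ± 0.06, adjusted p = 7.23e-08). SLC7A2 (ENSG00000003989), a carrier of arginine and lysine, stood at 40.1, 31.9 and 34.9 CPM in Ctrl and 102, 89.5 and 87.02 CPM in OHT, again without overlap (1.37 ± 0.09, adjusted p = 1.80e-07). SLC43A2 (ENSG00000167703), another carrier of large neutral amino acids, went from 9.12 ± 1.0 to 23.5 ± 0.38 CPM (mean ± SD, n = 3 per group, here and below), a change of 1.33 ± 0.10, adjusted p = 5.47e-07. The glutamine carrier SLC38A1 rose by 0.79 ± 0.09 and the taurine carrier SLC6A6 by 0.72 ± 0.10. The abundant glutamine carrier SLC1A5 did not pass the test, at 215 ± 7.8 CPM in Ctrl and 219 ± 1.2 CPM in OHT (0.03 ± 0.06, adjusted p = 0.799).

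Carriers of vitamins, choline and nucleosides had 10 rises (55.6%, beside 11.4% of all genes) and 0 falls among 18 tested (median 0.34). At an unadjusted p below 0.05 limma had 1 fall in this list, and edgeR called 0. With the length and GC trend removed 1 fall was called, and likewise 1 with the replicate number as a block. SLC19A3, a thiamine carrier of the plasma membrane, rose most in this list (2.22 ± 0.13). SLC19A2 (ENSG00000117479), the other thiamine carrier there, stood at 26.2, 23.6 and 22.1 CPM in Ctrl and 82.95, 71.5 and 70.3 CPM in OHT. The lowest OHT value was well above the highest Ctrl value (1.62 ± 0.08, adjusted p = 4.07e-08). Of the equilibrative nucleoside carriers, SLC29A1 (ENSG00000112759), which serves the plasma membrane, stood at 86.9, 82.1 and 95.6 CPM in Ctrl and 140.2, 133 and 145 CPM in OHT. Its groups did not overlap (0.66 ± 0.07, adjusted p = 1.27e-05). SLC29A2 rose by 0.88 ± 0.13 and the lysosomal SLC29A3 by 0.91 ± 0.12, from 2.96 ± 0.10 to 5.996 ± 0.084 CPM. SLC23A2, a vitamin C carrier, rose by 0.47 ± 0.10, whereas the reduced folate carrier SLC19A1 did not pass the test (0.11 ± 0.07, adjusted p = 0.320). A noncoding gene, B4GAT1-DT, overlaps SLC29A2.

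Hexose and monocarboxylate carriers moved in both directions, with 6 rises and 2 falls among 29 and a median of -0.02. SLC16A1 (ENSG00000155380), the MCT1 carrier of lactate and pyruvate, stood at 141, 145 and 138 CPM in Ctrl and 257, 246 and 254 CPM in OHT. The OHT libraries all lay far above the Ctrl libraries (0.84 ± 0.06, adjusted p = 2.76e-07). SLC16A3, the MCT4 lactate carrier, did not pass the test (0.09 ± 0.07, adjusted p = 0.405). SLC2A3 (ENSG00000059804), the glucose carrier GLUT3, fell from 18.2 ± 0.42 to 10.7 ± 1.1 CPM (-0.75 ± 0.10, adjusted p = 1.03e-04), while the more abundant GLUT1 gene SLC2A1 did not pass (0.15 ± 0.08, adjusted p = 0.177).

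Metal carriers and their partners had 11 rises and 0 falls among 33 tested (median 0.11). By limma 2 of them fell at an unadjusted p below 0.05, and edgeR called 0 falls. Falls numbered 3 with the length and GC trend removed, 2 with the replicate number as a block and 1 with DESeq2. TFRC (ENSG00000072274), the transferrin receptor that takes up iron, stood at 266, 179.7 and 210.1 CPM in Ctrl and 436, 331 and 295 CPM in OHT. The groups did not overlap, but the highest Ctrl and the lowest OHT library were close (0.69 ± 0.14, adjusted p = 0.00245). With Dox present the change of TFRC was 0.16 ± 0.12, adjusted p = 0.373, and the test of the difference between the 2 backgrounds gave -0.53 ± 0.17, adjusted p = 0.218. The zinc importers SLC39A6 (0.77 ± 0.07) and SLC39A14 (0.52 ± 0.06) and the zinc exporter SLC30A1 (0.58 ± 0.09) rose together, and STEAP1, of the STEAP metalloreductase family, rose by 0.68 ± 0.08. Rises among metal carriers numbered 7 without Ctrl replicate 2 or Ctrl replicate 3.

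Other transport groups had varied shares of rises, beside 11.4% of all genes. Inorganic ion exchangers had 7 rises among 33 (21.2%), ABC transporters 6 among 34 (17.6%) and anion channels 5 among 22 (22.7%). Potassium channels had 3 among 30 (10.0%) and other cation channels 7 among 46 (15.2%). Anion channels had 2 falls and the other groups of these had 0. With the length and GC trend removed, falls numbered 1 among ion exchangers, 2 among ABC transporters, 2 among potassium channels and 4 among other cation channels. In the ABC family the multidrug resistance proteins ABCC5 (from 36.1 ± 4.2 to 74.4 ± 7.2 CPM, 1.03 ± 0.09, adjusted p = 2.63e-06), ABCC4 (0.69 ± 0.08) and ABCC1 (0.56 ± 0.09) rose, as did the lipid transporter ABCA3 (0.78 ± 0.08). SLCO4A1, an organic anion carrier, rose from 26.1 ± 0.32 to 60.7 ± 6.5 CPM (1.20 ± 0.08, adjusted p = 2.76e-07), and an antisense gene overlaps it. Among channels, the voltage-gated potassium channel gene KCNC4 rose from 5.12 ± 0.20 to 14.1 ± 1.4 CPM (1.37 ± 0.11, adjusted p = 1.35e-06) and TRPM7, a magnesium-permeable channel, by 0.65 ± 0.08. LRRC8A, the obligatory subunit of the volume-regulated anion channel, fell (-0.29 ± 0.07, adjusted p = 0.00885), while its partner subunit LRRC8D rose (0.52 ± 0.07, adjusted p = 1.26e-04). The beta subunit gene ATP1B1 of the sodium pump fell from 139 ± 0.23 to 105 ± 6.5 CPM (-0.40 ± 0.06, adjusted p = 3.83e-04). Rises among ion exchangers numbered 4 without OHT replicate 1 or OHT replicate 3. Rises among cation channels numbered 3 without Ctrl replicate 3 and 4 without Ctrl replicate 2 or OHT replicate 1.

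**Figure D2:**
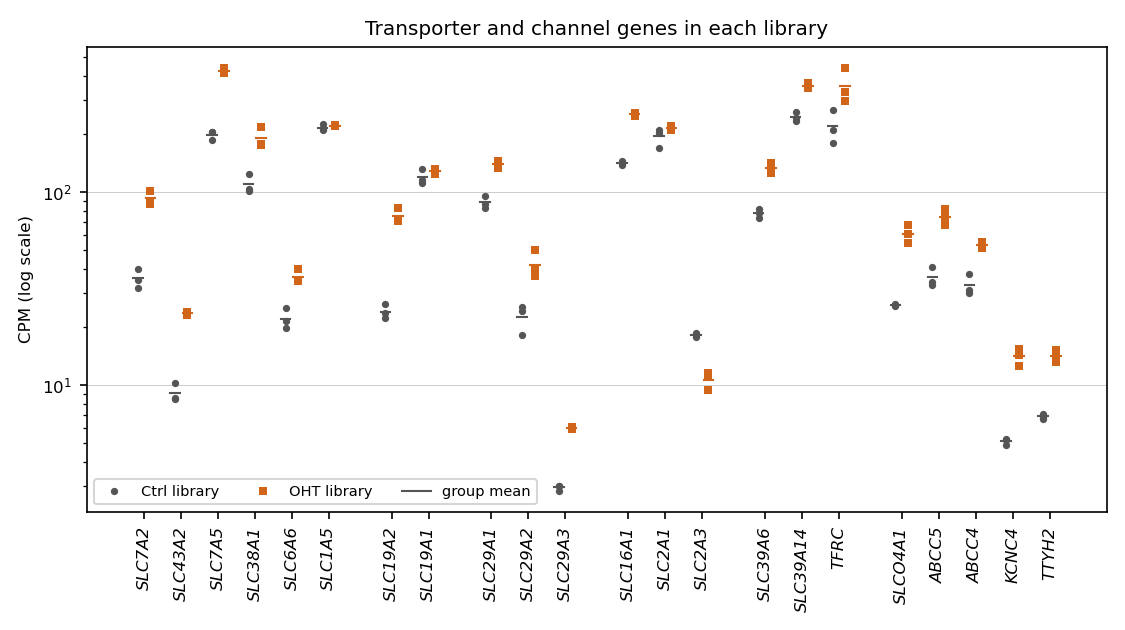
CPM in each library (points, logarithmic axis) for named transporter genes in Ctrl and OHT, with n = 3 libraries per group and group means as short lines. For SLC7A5, SLC7A2, SLC19A2 and SLC16A1 the OHT points lie above all Ctrl points.

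Nuclear genes for mitochondrial proteins had shares of calls near the background. Of 473 tested, 61 rose (12.9%) and 27 fell (5.71%), beside 11.4% and 6.94% of all genes. Within this class the carriers, the upkeep and expression of mitochondrial DNA, and the respiratory chain differed in direction. The table holds no gene encoded on the mitochondrial genome. Outside those groups, PLD6, which encodes a lipid hydrolase of the outer mitochondrial membrane, had the largest rise of the class (2.04 ± 0.07), and MIEF2, which takes part in fission, fell (-0.73 ± 0.09, adjusted p = 8.43e-05). PLD6 lies opposite the gene MPRIP. Rises among all mitochondrial genes numbered 40 without OHT replicate 3. Falls among all mitochondrial genes numbered 8 without Ctrl replicate 2, 9 without Ctrl replicate 3 or OHT replicate 1, 10 without OHT replicate 3 and 68 without Ctrl replicate 1. In the fit without Ctrl replicate 1 those falls exceeded the 63 rises.

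The SLC25 family carries metabolites across the inner mitochondrial membrane, and 12 of its 40 tested genes rose and 2 fell (median 0.08). SLC25A33 (ENSG00000171612), a pyrimidine nucleotide carrier, stood at 25.6, 27.5 and 26.6 CPM in Ctrl and 42.4, 47.3 and 47.2 CPM in OHT. Its OHT libraries were all above its Ctrl libraries (0.77 ± 0.07, adjusted p = 7.01e-06). The glutamate carrier SLC25A22 rose by 0.53 ± 0.07, the ATP-magnesium carrier SLC25A23 by 0.68 ± 0.09 and the glycine carrier SLC25A38 by 0.51 ± 0.08. SLC25A42, which carries coenzyme A, fell from 6.07 ± 0.81 to 3.92 ± 0.31 CPM (-0.57 ± 0.13, adjusted p = 0.00801). The most abundant member, the phosphate carrier SLC25A3, did not pass the test (-0.21 ± 0.07, adjusted p = 0.0539).

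Regulators of pyruvate dehydrogenase changed in different directions. This enzyme is switched off by kinases and switched on by phosphatases. PDP2 (ENSG00000172840), one of its phosphatases, stood at 41.8, 33.9 and 36.6 CPM in Ctrl and 98.03, 79.8 and 85.6 CPM in OHT. The lowest OHT library was far above the highest Ctrl library (1.22 ± 0.09, adjusted p = 5.59e-07). PDP1 (ENSG00000164951), the other phosphatase, stood at 68.8, 62.2 and 59.03 CPM in Ctrl and 48.8, 40.9 and 41.2 CPM in OHT, with every OHT library below every Ctrl library (-0.53 ± 0.08, adjusted p = 4.18e-04). PDK1 (ENSG00000152256), one of the kinases, stood at 15.4, 14.02 and 14.7 CPM in Ctrl and 26.5, 27.7 and 28.2 CPM in OHT. It rose (0.88 ± 0.08, adjusted p = 4.56e-06). Other rises in mitochondrial metabolism were the folate enzyme MTHFD1L (0.31 ± 0.06), the proline synthesis enzyme PYCR1 (0.47 ± 0.07) and CPT1A, which commits fatty acids to oxidation (0.47 ± 0.07). MTHFD2 did not pass (0.16 ± 0.06, adjusted p = 0.0872).

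Genes that maintain mitochondrial DNA and translate its transcripts rose in part. Of 33 genes for DNA upkeep and transcription, 8 rose (24.2%, beside 11.4% of all genes) and 1 fell. The rises included POLG2, the accessory subunit of the mitochondrial DNA polymerase (from 35.8 ± 1.6 to 56.4 ± 8.9 CPM, 0.64 ± 0.10, adjusted p = 3.90e-04), SUPV3L1, a helicase of RNA turnover (0.44 ± 0.07), the topoisomerase TOP1MT (0.34 ± 0.06) and the poly(A) polymerase MTPAP (0.31 ± 0.07). MTFMT, which formylates the initiator tRNA, rose from 24.5 ± 1.8 to 36.7 ± 1.9 CPM (0.58 ± 0.08, adjusted p = 1.61e-04), and the methionyl-tRNA synthetase MARS2 by 0.44 ± 0.09. The small ribosomal subunit had 7 rises (21.9%) and 0 falls among 32, with MRPS17 at 0.56 ± 0.08 and PTCD3 at 0.44 ± 0.07. By limma 2 members fell at an unadjusted p below 0.05, and edgeR called 0 falls. Its falls numbered 1 with the length and GC trend removed and 3 with the replicate number as a block. The large subunit had 2 rises and 2 falls among 48, with a median of -0.11. Mitochondrial protein import genes had 6 rises and 2 falls among 43, shares near the background, with a median of -0.005. Without Ctrl replicate 2 or Ctrl replicate 3 there were 0 falls in the import list, and without Ctrl replicate 1 there were 5. Its rises included GRPEL1 (0.51 ± 0.07), TIMM44 (0.36 ± 0.06) and CHCHD4 (0.33 ± 0.07). The abundant chaperones HSPD1 (0.04 ± 0.07, adjusted p = 0.733) and HSPA9 (0.02 ± 0.06, adjusted p = 0.883) did not pass. Rises among genes of mitochondrial DNA upkeep and transcription numbered 4 without OHT replicate 2 and 5 without Ctrl replicate 3 or OHT replicate 3. Rises among small subunit genes numbered 3 without OHT replicate 3. Falls among large subunit genes numbered 0 without Ctrl replicate 2, Ctrl replicate 3, OHT replicate 1 or OHT replicate 3 and 10 without Ctrl replicate 1.

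Nuclear genes for subunits of the respiratory chain and the ATP synthase lay below 0 as a group. Of 82 tested in complexes I to V, 77 had a negative change, the median was -0.14, 11 fell and 0 rose. By limma 1 subunit gene was higher at an unadjusted p below 0.05, and edgeR called 0 rises. With the replicate number as a block 1 rise was called, and likewise 1 with 12 libraries in the fit. By complex, 4 of 38 fell in complex I, 1 of 13 in complexes II and III, 4 of 13 in complex IV and 2 of 19 in complex V, with NDUFA4 counted in both complex I and complex IV. UQCRB (ENSG00000156467), a complex III subunit, stood at 177, 208 and 183 CPM in Ctrl and 148, 164 and 149 CPM in OHT. Its groups did not overlap, and the change was -0.30 ± 0.07, adjusted p = 0.00932, a call lost without OHT replicate 3. COX5B (ENSG00000135940), a complex IV subunit, stood at 99.2, 133 and 111 CPM in Ctrl and 89.5, 98.04 and 93.9 CPM in OHT, with OHT replicate 2 just under Ctrl replicate 1 (-0.27 ± 0.09, adjusted p = 0.0429). That call was lost without Ctrl replicate 2, Ctrl replicate 3, OHT replicate 1 or OHT replicate 3, and with edgeR. No subunit fell by more than 0.34 on the log2 scale.

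Calls in the respiratory chain depended on single libraries. Of the 82 genes, 33 fell without Ctrl replicate 1, 14 without OHT replicate 2, 3 without OHT replicate 1, 2 without Ctrl replicate 3, 1 without Ctrl replicate 2 and 0 without OHT replicate 3. edgeR on recovered reads called 5 falls, and a fit with the replicate number as a block called 40. Ctrl replicate 2 was the highest Ctrl library for 50 of the 82 genes, beside 5090 of all 18095 genes tested. In the presence of Dox the median change of these genes was 0.02, with 4 rises and 1 fall. The difference between backgrounds had a median of 0.17 and no gene of the 82 passed its test (smallest adjusted p = 0.218).

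**Figure D3:**
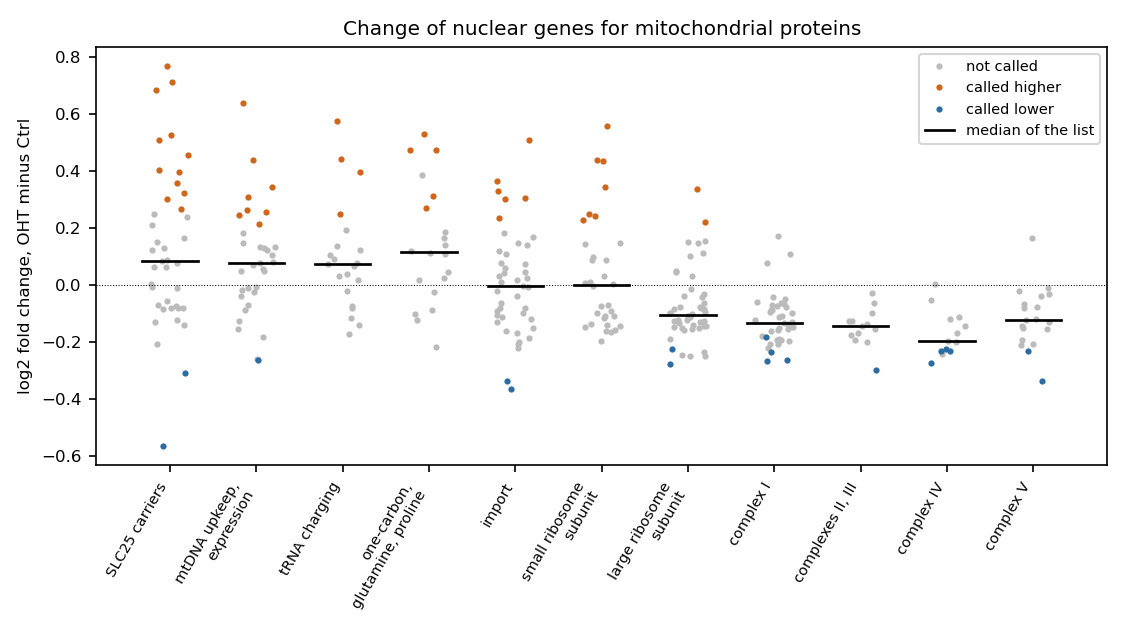
Log2 fold change of each tested gene, OHT against Ctrl (points, log2 scale), for groups of mitochondrial genes. Horizontal lines are medians of the lists and colours mark calls. Genes of the respiratory complexes lie mostly under 0, none lower than -0.34, and the SLC25 carriers spread to both sides.

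Signalling genes moved in both directions. Of 848 tested, 134 rose (15.8%) and 84 fell (9.91%), beside 11.4% and 6.94% of all genes, and 128 rose and 129 fell once the length and GC trend was removed. Rises among signalling genes numbered 88 without Ctrl replicate 3. Falls among signalling genes numbered 46 without Ctrl replicate 3 and 51 without OHT replicate 3.

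Among secreted growth factors, 5 of 34 fell and 2 rose. HBEGF (ENSG00000113070), a ligand of the EGF receptor, stood at 45.3, 51.1 and 42.5 CPM in Ctrl and 24.99, 28.7 and 28.3 CPM in OHT. The OHT values were all below the Ctrl values (-0.75 ± 0.09, adjusted p = 3.13e-05). EREG, another EGF receptor ligand, fell from 3.42 ± 0.25 to 1.88 ± 0.22 CPM (-0.73 ± 0.14, adjusted p = 0.00259) and FGF1 from 33.3 ± 1.3 to 23.4 ± 0.97 CPM (-0.50 ± 0.08, adjusted p = 3.10e-04). VEGFA, the ligand of endothelial growth factor receptors, rose from 29.8 ± 1.8 to 46.7 ± 5.0 CPM (0.64 ± 0.09, adjusted p = 1.16e-04). Of the receptors, EPHA2 fell (-0.55 ± 0.06, adjusted p = 2.27e-05) and EPHB4 rose (0.45 ± 0.07, adjusted p = 4.16e-04). AXL, one of the most abundant receptor tyrosine kinase genes, was at the threshold and did not pass (-0.17 ± 0.06, adjusted p = 0.0516).

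Feedback genes of the ERK pathway changed in both directions, 5 up and 7 down among 25, which is more calls than the background share. DUSP6 (ENSG00000139318), a phosphatase of ERK that ERK activity induces, stood at 23.8, 22.02 and 24.1 CPM in Ctrl and 14.7, 13.2 and 11.7 CPM in OHT. The OHT libraries were lower without overlap (-0.80 ± 0.10, adjusted p = 4.88e-05). SPRED3 (ENSG00000188766), an inhibitor of RAS signalling, fell from 3.48 ± 0.34 to 1.33 ± 0.27 CPM (-1.13 ± 0.16, adjusted p = 1.73e-04), and ERRFI1, an inhibitor of the EGF receptor (-0.45 ± 0.06), and PHLDA1 (-0.75 ± 0.10) fell too. In the opposite direction, the ERK phosphatase DUSP7 rose from 41.3 ± 1.7 to 69.9 ± 1.9 CPM (0.75 ± 0.07, adjusted p = 2.60e-06) and the inhibitor SPRY1 by 0.77 ± 0.13. The gene PHLDA1-AS1 overlaps PHLDA1.

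In the list of AMPK and LKB1 pathway genes 3 rose and 3 fell among 24, with a median of -0.03. SIK1 (ENSG00000142178), a salt-inducible kinase, stood at 20.7, 18.3 and 20.3 CPM in Ctrl and 53.9, 45.4 and 51.4 CPM in OHT. Every OHT value was more than 2-fold above every Ctrl value (1.32 ± 0.08, adjusted p = 1.80e-07). CAMKK1 (1.11 ± 0.08) and CAMKK2 (0.86 ± 0.08), calcium-dependent kinases upstream of AMPK, rose as well. The falls were those of the AMPK-related kinases BRSK1 (-0.45 ± 0.11, adjusted p = 0.00845) and NUAK2 (-0.33 ± 0.10, adjusted p = 0.0408) and of STRADA, a pseudokinase partner of LKB1 (-0.19 ± 0.06, adjusted p = 0.0474). Falls among AMPK and LKB1 genes numbered 0 without Ctrl replicate 3 and 1 without Ctrl replicate 1, Ctrl replicate 2, OHT replicate 2 or OHT replicate 3. PIM2 rose (0.63 ± 0.12, adjusted p = 0.00169) and PIM1 fell (-0.66 ± 0.10, adjusted p = 3.56e-04). The PI3K, AKT and mTOR list had 6 rises (10.7%) and 4 falls (7.14%) among 56, near the 11.4% and 6.94% of all genes. In the mTOR pathway the inhibitor DEPTOR rose from 0.941 ± 0.083 to 2.13 ± 0.12 CPM (0.87 ± 0.15, adjusted p = 0.00112), while SESN2, which senses leucine, fell (-0.72 ± 0.12, adjusted p = 6.44e-04) together with the kinase SGK1 (-0.44 ± 0.08, adjusted p = 0.00152). RAS and MAP kinase cascade genes had 8 rises and 1 fall among 65, but 6 rises and 8 falls with the length and GC trend removed. MAP3K5, a stress-activated kinase, rose by 0.80 ± 0.11, and MAPK7, which encodes ERK5, fell (-0.53 ± 0.07).

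In cyclic nucleotide signalling, 11 of 44 genes rose and 3 fell. PDE4A (ENSG00000065989), a phosphodiesterase that degrades cyclic AMP, stood at 11.97, 12.1 and 11.4 CPM in Ctrl and 27.2, 26.2 and 27.3 CPM in OHT. OHT libraries were above Ctrl libraries throughout (1.15 ± 0.08, adjusted p = 4.72e-07). GUCY1A1 rose from 6.97 ± 0.88 to 16.4 ± 0.98 CPM (1.18 ± 0.11, adjusted p = 4.85e-06) and GUCY1B1 by 0.45 ± 0.09, and together they encode the soluble guanylate cyclase that nitric oxide activates. Of 106 G protein-coupled receptor genes, 17 rose and 7 fell. The largest rise was that of the orphan receptor gene GPR157 (2.06 ± 0.09). ADORA2B, a receptor for adenosine, rose from 74.1 ± 2.0 to 118 ± 6.4 CPM (0.67 ± 0.06, adjusted p = 5.69e-06) and GPR63, another orphan receptor, by 1.23 ± 0.11. RGS4, which shortens G protein signals, fell from 168 ± 18 to 99.9 ± 1.7 CPM (-0.74 ± 0.07, adjusted p = 7.64e-06), and the beta-arrestin gene ARRB1 rose by 1.01 ± 0.10. Rises among cyclic nucleotide genes numbered 6 without Ctrl replicate 3 or OHT replicate 1 and 7 without Ctrl replicate 2 or OHT replicate 3. Rises among G protein-coupled receptor genes numbered 10 without Ctrl replicate 2 or Ctrl replicate 3 and 11 without OHT replicate 1 or OHT replicate 3.

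Notch, Wnt and TGF-beta or BMP genes had shares of rises above the 11.4% of all genes. Their shares of falls were also above the 6.94% of all genes, though by little in the Notch and Wnt lists. In the Notch and Hedgehog list 8 of 28 rose (28.6%) and 2 fell (7.14%), and in the Wnt list 13 of 39 rose (33.3%) and 3 fell (7.69%). In the TGF-beta and BMP list 11 of 47 rose (23.4%) and 5 fell (10.6%). NRARP (ENSG00000198435), a feedback inhibitor of Notch, stood at 14.4, 14.04 and 14.5 CPM in Ctrl and 41.3, 43.5 and 38.9 CPM in OHT. Its OHT values were all more than 2-fold above its Ctrl values (1.49 ± 0.08, adjusted p = 4.07e-08). The receptor NOTCH1 rose from 21.3 ± 0.70 to 34.3 ± 3.4 CPM (0.67 ± 0.09, adjusted p = 8.06e-05), and JAG1, a Notch ligand, fell from 134 ± 7.5 to 91.8 ± 12 CPM (-0.55 ± 0.08, adjusted p = 3.12e-04). Of the Wnt genes, the receptors FZD4 (0.61 ± 0.11) and FZD5 (0.72 ± 0.10) and the scaffold AXIN1 (0.54 ± 0.06) rose, and the secreted inhibitor DKK1 fell from 76.8 ± 15 to 43.8 ± 8.3 CPM (-0.80 ± 0.14, adjusted p = 8.46e-04). The effector CTNNB1 did not pass (-0.03 ± 0.06, adjusted p = 0.797). Rises among Notch and Hedgehog genes numbered 5 without Ctrl replicate 3.

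TGFB3 (ENSG00000119699), a TGF-beta ligand whose E-box is shown above, stood at 9.97, 10.2 and 11.6 CPM in Ctrl and 23.7, 20.3 and 19.5 CPM in OHT. The lowest OHT library was well above the highest Ctrl library (0.96 ± 0.10, adjusted p = 1.55e-05). TGFB1, far more abundant, did not pass (-0.02 ± 0.06, adjusted p = 0.840). BMP6 (ENSG00000153162), a BMP ligand at low levels, stood at 0.764, 0.691 and 0.624 CPM in Ctrl and 2.63, 2.89 and 2.73 CPM in OHT, without overlap (1.45 ± 0.15, adjusted p = 1.46e-05). The ligand GDF6 (1.10 ± 0.13), the BMP signal transducer SMAD1 (0.70 ± 0.09) and the decoy receptor BAMBI (0.78 ± 0.12) rose, while GDF15, a stress-induced ligand, fell (-0.65 ± 0.11, adjusted p = 0.00101). BMP4 fell too (-0.58 ± 0.15, adjusted p = 0.0160), a call lost without Ctrl replicate 3 or OHT replicate 3. Falls in the TGF-beta and BMP list numbered 3 without OHT replicate 3. The antisense genes TGFB3-AS1 and SMAD1-AS1 overlap TGFB3 and SMAD1.

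The cytokine and JAK-STAT list had 5 rises and 8 falls among 61, and the TNF and NF-kB list 7 rises and 8 falls among 46. IL17D (ENSG00000172458), a cytokine of the interleukin 17 family, stood at 1.76, 1.52 and 1.79 CPM in Ctrl and 5.57, 6.25 and 6.202 CPM in OHT. It was scarce in Ctrl and higher in every OHT library (1.57 ± 0.13, adjusted p = 2.17e-06). IL11, a cytokine of the interleukin 6 family, fell from 7.36 ± 0.64 to 2.51 ± 0.50 CPM (-1.40 ± 0.14, adjusted p = 1.17e-05). The receptor IL7R fell (-0.51 ± 0.08, adjusted p = 5.52e-04), as did the ligand CLCF1 (-0.68 ± 0.11, adjusted p = 5.84e-04). TRAF3, an adaptor of TNF receptors, rose from 60.1 ± 3.0 to 94.1 ± 3.1 CPM (0.64 ± 0.06, adjusted p = 9.30e-06), and BIRC2, an inhibitor of cell death, fell (-0.34 ± 0.06, adjusted p = 0.00177). Rises among cytokine genes numbered 3 without Ctrl replicate 3 or OHT replicate 3 and 9 without Ctrl replicate 1. Falls among cytokine genes numbered 4 without Ctrl replicate 3 and 5 without OHT replicate 3. Rises among TNF genes numbered 3 without OHT replicate 3 and 4 without Ctrl replicate 2, Ctrl replicate 3 or OHT replicate 1. Falls among TNF genes numbered 3 without OHT replicate 3, 4 without Ctrl replicate 3 and 5 without OHT replicate 2.

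Guidance genes had 10 rises and 4 falls among 57, with the largest rise in LRFN1, which encodes a synaptic adhesion protein (2.04 ± 0.12), rises of the semaphorin co-receptor NRP2 (0.69 ± 0.10), FLRT2 (0.67 ± 0.09) and SLITRK5 (0.86 ± 0.12) and a fall of SLITRK6 (-0.83 ± 0.15).

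**Figure D4:**
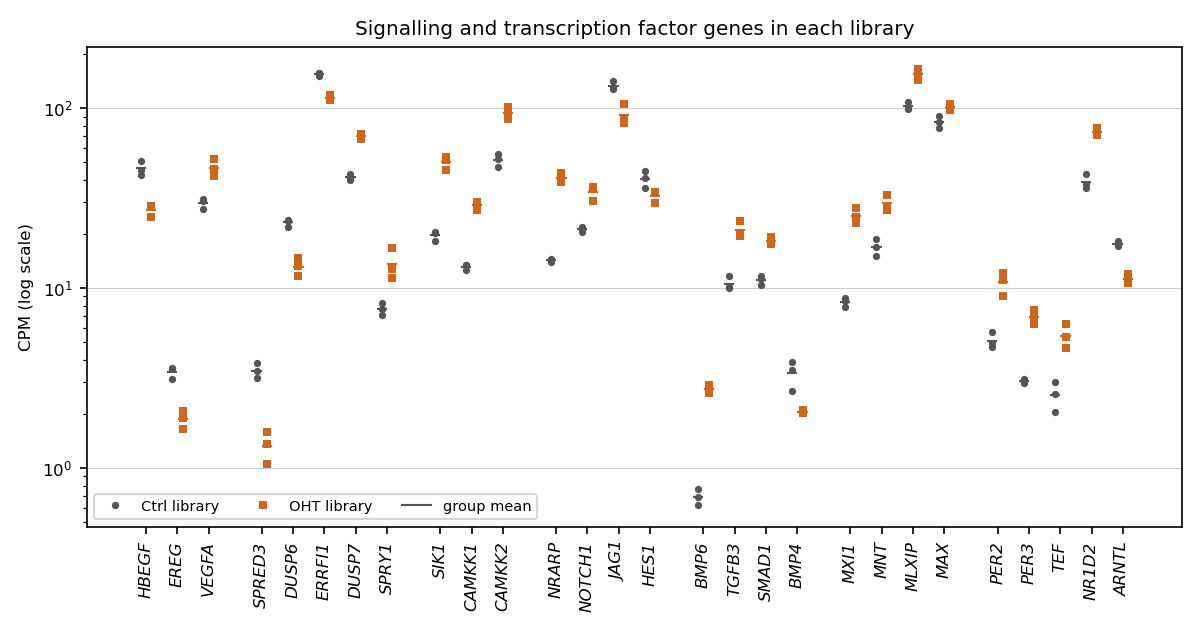
CPM in each library (points, logarithmic axis) for named signalling and transcription factor genes in Ctrl and OHT, with n = 3 libraries per group and group means as short lines. SIK1 and NRARP lie higher in all OHT libraries than in all Ctrl libraries, and HBEGF and DUSP6 lie lower.

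Rises outnumbered falls among transcription factor genes, as they did over all genes, where 62.1% of calls were rises. Of 888 tested, 147 rose (16.6%) and 70 fell (7.88%), beside 11.4% and 6.94% of all genes, with a median of 0.01. With the length and GC trend removed, 150 rose and 113 fell. Falls among transcription factor genes numbered 43 without Ctrl replicate 3 and 44 without OHT replicate 3.

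In the MYC, MAX and MLX network, 6 of 15 genes rose and 1 fell. The MAX partners MXI1 and MNT repress E-box genes. MXI1 (ENSG00000119950) stood at 8.77, 7.87 and 8.44 CPM in Ctrl and 27.8, 24.9 and 22.97 CPM in OHT. All OHT libraries lay above all Ctrl libraries by more than 2-fold (1.53 ± 0.10, adjusted p = 1.80e-07). MNT (ENSG00000070444) stood at 18.8, 15.1 and 16.9 CPM in Ctrl and 33.1, 27.3 and 28.7 CPM in OHT, also without overlap (0.79 ± 0.10, adjusted p = 6.96e-05). MAX (ENSG00000125952), the shared partner, stood at 83.99, 78.1 and 90.7 CPM in Ctrl and 106, 101 and 98.3 CPM in OHT. It rose less (0.27 ± 0.07, adjusted p = 0.0119), a call lost without Ctrl replicate 2 or OHT replicate 1. The fall was that of MYC (ENSG00000136997), the paralogue of MYCN, which stood at 30.1, 29.9 and 29.9 CPM in Ctrl and 9.74, 11.3 and 11.9 CPM in OHT. Its OHT libraries all lay far below its Ctrl libraries (-1.41 ± 0.09, adjusted p = 1.92e-07). MLXIP, which encodes the glucose-sensing factor MondoA, rose by 0.59 ± 0.07. Rises among MYC network genes numbered 3 without Ctrl replicate 2.

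Among other basic helix-loop-helix genes, TFAP4, a factor that MYC is known to activate, rose by 0.90 ± 0.08, TWIST2 from 8.32 ± 1.3 to 17.4 ± 1.3 CPM (1.03 ± 0.12, adjusted p = 3.38e-05) and TCF3 by 0.34 ± 0.06. ID2, which blocks such factors, fell (-0.61 ± 0.13, adjusted p = 0.00526). Clock genes had 8 rises and 2 falls among 22 (median 0.23). The largest rises were those of NR1D1 (2.55 ± 0.14), which encodes REV-ERB alpha, and BHLHE41 (1.93 ± 0.14), a repressor of the clock. In the circadian clock BMAL1, encoded by ARNTL, drives the PER genes from E-boxes, and the PER and REV-ERB proteins feed back on it. ARNTL (ENSG00000133794) stood at 18.4, 17.4 and 17.3 CPM in Ctrl and 12.1, 10.7 and 11.1 CPM in OHT. OHT values were lower throughout (-0.62 ± 0.09, adjusted p = 2.44e-04). PER3 (ENSG00000049246) stood at 3.15, 2.96 and 3.05 CPM in Ctrl and 7.53, 6.302 and 6.86 CPM in OHT. It rose (1.05 ± 0.12, adjusted p = 3.65e-05), as did PER2 (1.00 ± 0.13, adjusted p = 7.82e-05). NR1D2, which encodes REV-ERB beta, rose from 39.2 ± 3.7 to 73.5 ± 3.9 CPM (0.90 ± 0.08, adjusted p = 2.39e-06). The output factors TEF (0.97 ± 0.16) and DBP (0.55 ± 0.11) rose and their antagonist NFIL3 fell (-0.45 ± 0.11, adjusted p = 0.0101).

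Nuclear receptor genes had 10 rises and 2 falls among 35, and their coregulators 10 and 3 among 26. PPARGC1B (ENSG00000155846), a coactivator that promotes mitochondrial gene expression, stood at 10.8, 8.51 and 7.04 CPM in Ctrl and 19.3, 20.1 and 19.1 CPM in OHT. The OHT libraries were close to each other and all above the Ctrl libraries (1.13 ± 0.13, adjusted p = 2.52e-05). TSC22D3, the glucocorticoid-induced leucine zipper gene, rose most among the coregulators (1.91 ± 0.14). FKBP5, a chaperone partner of steroid receptors, rose by 0.61 ± 0.06, and the thyroid hormone receptor gene THRA by 0.72 ± 0.13, though THRA overlaps the end of NR1D1, another riser, on the opposite strand. NR2F2, a developmental receptor, fell from 114 ± 5.8 to 83.2 ± 3.2 CPM (-0.45 ± 0.06, adjusted p = 2.01e-04), and the immediate early gene NR4A2 fell (-0.64 ± 0.14, adjusted p = 0.00544). Rises among nuclear receptor genes numbered 6 without OHT replicate 1.

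The AP-1, ATF, CREB and MAF list had 11 falls and 7 rises among 46, an order that turned to 6 falls and 7 rises without Ctrl replicate 3 and to 6 falls and 8 rises without OHT replicate 3. BATF3 rose from 4.398 ± 0.41 to 12.3 ± 0.35 CPM (1.39 ± 0.11, adjusted p = 1.24e-06) and CEBPD by 0.69 ± 0.10. In the KLF and SP families KLF6, a growth restraining factor, fell from 123 ± 12 to 77.6 ± 4.2 CPM (-0.66 ± 0.08, adjusted p = 3.30e-05) and KLF16 rose by 0.70 ± 0.08. The mRNA decay factor ZFP36, grouped here by its zinc fingers, fell from 5.66 ± 0.46 to 2.76 ± 0.15 CPM (-0.92 ± 0.13, adjusted p = 1.60e-04). Falls in the AP-1, ATF, CREB and MAF list also numbered 6 without Ctrl replicate 2 or OHT replicate 1.

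Developmental factors rose more often than they fell. Homeobox genes had 20 rises and 4 falls among 83, SOX and forkhead genes 9 and 2 among 34, and the GATA, T-box, RUNX, TEAD and TFAP2 genes 11 and 4 among 47. FOXC1 (ENSG00000054598), a factor of mesenchyme development, stood at 12.7, 13.7 and 14.4 CPM in Ctrl and 33.4, 30.9 and 32.9 CPM in OHT. Its OHT libraries were more than 2-fold above its Ctrl libraries (1.22 ± 0.08, adjusted p = 2.76e-07). HHEX (ENSG00000152804), a homeobox repressor, stood at 8.37, 10.1 and 9.84 CPM in Ctrl and 22.7, 21.9 and 19.7 CPM in OHT. It rose (1.14 ± 0.10, adjusted p = 3.00e-06). HOXD13 (0.76 ± 0.08), SIX3 (0.74 ± 0.09), TEAD4 (0.57 ± 0.08) and SOX12 (0.50 ± 0.07) rose too. SOX9, a neural crest factor, fell from 65.8 ± 3.7 to 45.1 ± 9.5 CPM (-0.56 ± 0.11, adjusted p = 0.00280), and FOXD1 (-0.47 ± 0.07), HOXB2 (-0.55 ± 0.08) and TBX3 (-0.57 ± 0.09) fell. Rises among GATA, T-box, RUNX, TEAD and TFAP2 genes numbered 6 without Ctrl replicate 3 and 7 without OHT replicate 3.

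Of the mesenchymal neuroblastoma markers 2 rose and 1 fell among 8, with 6 negative changes and a median of -0.05, and 2 of 4 adrenergic markers tested rose. PRRX1, a factor of the mesenchymal state, rose from 66.5 ± 4.4 to 107 ± 5.9 CPM (0.68 ± 0.07, adjusted p = 1.06e-05), and NOTCH2 rose (0.46 ± 0.10, adjusted p = 0.00594), a call lost without Ctrl replicate 3. SNAI2, which encodes the factor SLUG, fell (-0.34 ± 0.11, adjusted p = 0.0480), a call lost in each fit without 1 library except that without Ctrl replicate 1, and with TMM rescaling, no filter or all 12 libraries in the fit. Of the adrenergic factors, GATA2 rose (0.34 ± 0.08, adjusted p = 0.00699), a call lost without OHT replicate 3. HAND2 rose too (0.24 ± 0.07, adjusted p = 0.0284), a call lost without Ctrl replicate 1, Ctrl replicate 3, OHT replicate 1 or OHT replicate 3, and the antisense gene HAND2-AS1 overlaps it. The adrenergic markers present in the table summed to 101.7 to 109.5 CPM in Ctrl and 116.7 to 132 CPM in OHT.

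Cell cycle factors fell more often than they rose, 6 against 3 among 26 E2F, RB, MYB and p53 family genes. E2F8 (ENSG00000129173), a repressor of E2F targets, stood at 39.8, 36.3 and 40.9 CPM in Ctrl and 21.8, 22.7 and 25.04 CPM in OHT. OHT libraries were lower without overlap (-0.74 ± 0.08, adjusted p = 2.13e-05), but the antisense gene CSRP3-AS1 spans it and had nearly the same values (40.1, 36.98 and 41.4 CPM in Ctrl and 22.3, 22.96 and 25.3 CPM in OHT). E2F1 (-0.30 ± 0.07) and TP73 (-0.38 ± 0.08) fell, and E2F5 rose by 0.53 ± 0.06. Among 398 genes with ZNF symbols, 46 rose and 25 fell, shares close to the background. ZNF469 (ENSG00000225614) stood at 10.1, 8.67 and 10.8 CPM in Ctrl and 32.6, 27.7 and 31.5 CPM in OHT, the largest rise among named zinc finger genes (1.59 ± 0.10, adjusted p = 1.80e-07). ZNF703 fell from 30.9 ± 4.2 to 18.1 ± 1.4 CPM (-0.75 ± 0.10, adjusted p = 1.33e-04), and the BTB zinc finger gene HIC1, a growth suppressor, rose from 0.816 ± 0.046 to 2.44 ± 0.15 CPM (1.16 ± 0.15, adjusted p = 9.95e-05). Falls of E2F and p53 family genes numbered 3 without OHT replicate 2. Falls among ZNF genes numbered 14 without OHT replicate 3 and 15 without Ctrl replicate 3.

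Noncoding genes were measured at lower levels than protein-coding genes. Of 3401 long noncoding genes tested, 272 rose and 145 fell, 12.3% called, against 1722 rises and 1064 falls among 13258 protein-coding genes, 21.0% called. The median level was 3.77 CPM for long noncoding and 31.7 CPM for protein-coding genes. Of 1349 pseudogenes, 66 rose and 43 fell. In the 1537 genes of the named noncoding lists, 114 rose (7.42%) and 72 fell (4.68%). Rises among these noncoding genes numbered 69 without OHT replicate 1, 71 without Ctrl replicate 3 and 72 without OHT replicate 3. Falls among these noncoding genes numbered 29 without Ctrl replicate 3 and 35 without OHT replicate 3.

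Host genes of small nucleolar RNAs, whose introns encode guides for ribosomal RNA modification, had 7 falls and 2 rises among 29 (median -0.10). SNHG12 (ENSG00000197989) stood at 17.8, 21.5 and 21.2 CPM in Ctrl and 10.95, 9.04 and 13.3 CPM in OHT. Every OHT library was below every Ctrl library (-0.85 ± 0.13, adjusted p = 2.87e-04). GAS5 (ENSG00000234741) stood at 143, 157 and 157 CPM in Ctrl and 116, 107 and 126 CPM in OHT. It fell (-0.38 ± 0.07, adjusted p = 0.00149), and SNHG1 (-0.35 ± 0.08) and ZFAS1 (-0.29 ± 0.07) fell as well. SNHG25 fell from 10.6 ± 1.3 to 5.45 ± 0.49 CPM (-0.89 ± 0.12, adjusted p = 1.31e-04), while with Dox present its change was -0.04 ± 0.14, adjusted p = 0.862, a difference between backgrounds of 0.85 ± 0.20, adjusted p = 0.218. SNHG15 (ENSG00000232956) went the other way, at 17.9, 21.4 and 18.2 CPM in Ctrl and 31.3, 25.5 and 29.9 CPM in OHT (0.58 ± 0.10, adjusted p = 7.80e-04). The most abundant host gene, SNHG29, did not pass (-0.19 ± 0.07, adjusted p = 0.0653). SNORD86, a small nucleolar RNA inside the ribosome assembly gene NOP56, rose by 0.59 ± 0.11, beside 0.33 ± 0.06 for NOP56, and poly(A) libraries hold few such RNAs of their own.

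LINC genes had 11 falls and 6 rises among 252, 6.75% called beside 18.3% of all genes. Without OHT replicate 2 the order turned, to 5 falls and 8 rises, and without OHT replicate 3 there were 4 of each. LINC00839 (ENSG00000185904), which overlaps no other listed gene, stood at 38.5, 38.3 and 37.5 CPM in Ctrl and 73.4, 63.3 and 73.96 CPM in OHT. Its OHT libraries lay above its Ctrl libraries without overlap (0.87 ± 0.07, adjusted p = 2.15e-06). LINC01592 fell from 36.5 ± 7.6 to 23.7 ± 1.7 CPM (-0.59 ± 0.12, adjusted p = 0.00273), and LINC01703, shown above, rose from 2.69 ± 0.25 to 4.04 ± 0.42 CPM (0.51 ± 0.14, adjusted p = 0.0183), a call lost without Ctrl replicate 3 or OHT replicate 3. Of 35 microRNA host genes, 1 rose and 2 fell. MIR503HG fell from 18.5 ± 2.5 to 11.03 ± 1.9 CPM (-0.73 ± 0.13, adjusted p = 0.00104) and MIR22HG from 11.7 ± 0.95 to 7.89 ± 0.60 CPM (-0.54 ± 0.11, adjusted p = 0.00260). MIR17HG (ENSG00000215417), host of the microRNA 17 to 92 cluster and named here after its values were seen, stood at 7.06, 6.91 and 6.21 CPM in Ctrl and 11.7, 6.81 and 12.3 CPM in OHT. OHT replicate 2 lay inside the Ctrl range (0.53 ± 0.17, adjusted p = 0.0439), and the call was lost without Ctrl replicate 2, Ctrl replicate 3, OHT replicate 1 or OHT replicate 3. The abundant MALAT1 (0.04 ± 0.10, adjusted p = 0.799) and NORAD (0.07 ± 0.07, adjusted p = 0.532) did not pass. Without Ctrl replicate 3 there were 5 falls and 2 rises among LINC genes, and without Ctrl replicate 2 there were 6 falls.

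Most long noncoding genes tested overlap another listed gene, and so did most of those called. Of 446 long noncoding genes that overlap no other listed gene, 29 rose and 12 fell (9.19% called), and of 2165 that overlap a gene only on the opposite strand, 171 rose and 92 fell. Among 2578 pairs of a noncoding gene and a tested opposite-strand partner, 328 had the noncoding gene called. The partner was called in the same direction in 260 of them, in the opposite direction in 4 and not at all in 64. Across the pairs the log2 fold changes had a Spearman correlation of 0.71, given as a description, since pairs share libraries and may share reads. In 80 pairs the values differed by at most 5% in all 6 libraries, as for TUBA1B-AS1, at 1834, 1898 and 2025 CPM in Ctrl and 1796, 1945 and 1835 CPM in OHT. Its partner TUBA1B stood at 1834, 1898 and 2024 CPM in Ctrl and 1796, 1945 and 1835 CPM in OHT. The libraries were made with a directional kit, per the labels' protocols, but the strand setting of the counting is not given in the sources used here, so reads of such pairs cannot be told apart.

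Some antisense genes departed from their partners. KTN1-AS1 (ENSG00000186615) stood at 7.17, 6.31 and 6.88 CPM in Ctrl and 15.3, 16.1 and 15.4 CPM in OHT. OHT libraries were more than 2-fold higher (1.14 ± 0.10, adjusted p = 2.55e-06), whereas KTN1 on the other strand, at 366 ± 36 CPM in Ctrl and 389 ± 10 CPM in OHT, did not pass (0.09 ± 0.07, adjusted p = 0.421). CARNMT1-AS1 (1.01 ± 0.08, adjusted p = 1.17e-06) and CARNMT1 (1.01 ± 0.08, adjusted p = 1.07e-06) moved together. RPARP-AS1 rose from 2.04 ± 0.14 to 5.94 ± 0.53 CPM (1.34 ± 0.13, adjusted p = 8.45e-06), and its overlapping partner C10orf95, at under 2 CPM, by 1.01 ± 0.18. Of divergent transcripts that overlap no listed gene, MRPL20-DT rose from 5.72 ± 0.18 to 10.3 ± 0.62 CPM (0.80 ± 0.11, adjusted p = 1.12e-04) and PCDH10-DT from 2.78 ± 0.14 to 5.67 ± 1.1 CPM (0.90 ± 0.15, adjusted p = 6.14e-04).

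**Figure D5:**
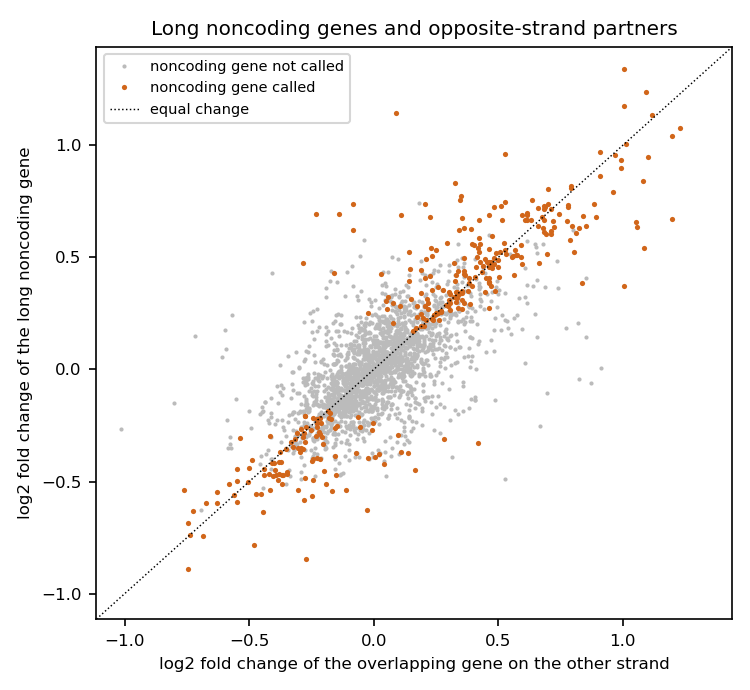
Log2 fold change, OHT against Ctrl, of long noncoding genes (vertical axis) against that of the tested gene on the opposite strand (horizontal axis), 1 point per pair for 2578 pairs. Points gather along the diagonal, and KTN1-AS1 lies near 1.14 with its partner near 0.09.

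The same response was measured in the second background, OHT_Dox against Dox, which shares no library with OHT against Ctrl. There 4873 of the 18095 genes were called (26.9%), in a fit that estimated the spread from all 12 libraries, Ctrl and OHT included. With all 12 libraries in the fit, OHT against Ctrl had 2354 rises and 1657 falls. The 4873 calls and the 3318 calls of the 6-library fit are therefore not like for like. Of the 3318 genes called with TCEAL1 at its usual level, 3094 had the same sign with Dox present, 2194 were called in the same direction and 2 in the opposite direction. SLC7A5 changed by 1.09 ± 0.06, PDP2 by 1.07 ± 0.08, NRARP by 1.56 ± 0.08, ARNTL by -0.95 ± 0.08 and KTN1-AS1 by 0.97 ± 0.09 with Dox present. The test of the difference between backgrounds called 0 genes by limma and 0 by edgeR, with 2850 genes at an unadjusted p below 0.05. Without Ctrl replicate 1 it called 1056.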

How the data were processed

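Poly(A) RNA-seq values of 12 libraries in 4 groups of 3 were used, with 51598024 to 57694970 reads in each of the 6 Ctrl and OHT libraries. The deposited unit is CPM, counts scaled by the authors to the same total in each library, per the table's name. STAR, featureCounts, DRAGEN, FastQC, Bowtie and Bowtie2, with hg19 and mm10, are listed per the submitters' processing notes for all assays together, and which of them made the table is not given in the sources used here. Every deposited CPM value was a whole multiple of 1 read within 0.01 reads, so whole reads were recovered.

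Genes with at least 0.5 CPM in at least 3 of the 6 libraries were fitted as log2(CPM + 0.5) with limma 3.58.1 (R 4.3.3, two-sided, mean trend, Benjamini-Hochberg). The pseudocount understates changes of low genes. The interaction and the comparison of OHT_Dox against Dox used all 12 libraries. edgeR 4.0.16 and DESeq2 1.42.0 on recovered reads, TMM rescaling, other pseudocounts and filters, removal of the length and GC trend, a replicate block and leaving out each library were alternatives. The limma script was tested on simulated data. Identifiers, gene types and overlaps came from GENCODE release 29 (28572 of 28576 matched), and promoters from RefSeq by symbol.

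The members and lists were chosen with earlier results of these data known, and lists are described by counts and medians with no set test. Per list, the text drew on up to 4 called genes (up to 8 for a family described one by one) with the largest change, a mean of 2 CPM or more in whichever group was higher and groups that did not overlap, beside up to 2 of the highest level, and not all of these are named. NUAK2 and STRADA were added after their values were seen. Outside the lists it drew on ranks 11 to 40 of rises and falls with at least 5 CPM. Genes known by clone names appear only in noncoding lists.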

Additional observations from a re-analysis of the deposited data

How the results depend on the processing

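No called gene drawn up for naming changed sign under the alternatives run. Of 69 lists with unequal numbers of rises and falls, 13 had the opposite order of the pair under at least 1 of 16 alternatives, among them all signalling genes with the length and GC trend removed (128 rises, 129 falls) and all mitochondrial genes without Ctrl replicate 1 (63 rises, 68 falls). Falls numbered 1977 with the length and GC trend removed and 2465 with the replicate block, when 2919 genes rose, against 1256 falls and 2062 rises in the fit reported. Leaving out 1 library gave 1459 (without OHT replicate 3) to 2333 rises (without Ctrl replicate 1) and 679 (without OHT replicate 3) to 1377 falls. Across the other alternatives rises ran from 1763 (no filter) to 2354 (12 libraries in the fit) and falls from 924 to 1657. The interaction called 0 genes in all settings run except without Ctrl replicate 1, when it called 1056. With windows of 50 bases to each side of the start, CACGTG stood in 3.93% of all matched genes, 6.48% of rises, 2.80% of falls, 3.63% of uncalled genes and 5.26% of rises over 2-fold, which were thus below all rises. Of 271 genes drawn up for naming, 239 were called, and 214 of these kept their call in all 6 fits without 1 library. The rule for naming favoured large changes and groups without overlap, so these counts and the kept signs say little about called genes in general. Whether replicate numbers pair the samples is not known. Deviations of same-numbered libraries had correlations of 0.34, 0.19 and 0.04 for replicates 1, 2 and 3. Correlations of differently numbered libraries ran from -0.27 to 0.09, and Ctrl replicate 3 correlated best with OHT replicate 2. The fit reported has no replicate term, and the replicate block raised both counts of calls, as given above. The median level of long noncoding genes was 3.77 CPM, which limits their precision.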

Other observations

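Genes outside the lists described above also moved. MMP17, a membrane-anchored matrix metalloproteinase, stood at 9.66, 8.37 and 8.25 CPM in Ctrl and 37.03, 26.9 and 27.6 CPM in OHT. OHT values were all above Ctrl values (1.73 ± 0.12, adjusted p = 3.07e-07). KCTD12, an auxiliary subunit of GABA-B receptors, rose from 22.7 ± 2.3 to 64.9 ± 5.5 CPM (1.50 ± 0.09, adjusted p = 7.66e-08), and TAF4B, a subunit of the general transcription factor TFIID, from 21.4 ± 1.3 to 59.7 ± 1.1 CPM (1.46 ± 0.07, adjusted p = 3.16e-08). ANKRD27, an endosomal trafficking protein, rose by 1.36 ± 0.08 and the secreted peptide gene APLN by 1.34 ± 0.13. The carbonic anhydrase gene CA12 rose from 8.56 ± 0.17 to 21.2 ± 1.1 CPM (1.26 ± 0.09, adjusted p = 4.98e-07), the sialyltransferase gene ST3GAL1 by 1.32 ± 0.13, and CIPC, which encodes an inhibitor of the clock factor CLOCK, by 1.20 ± 0.08. SLC6A8, the creatine transporter, rose from 65.6 ± 4.0 to 149.6 ± 5.0 CPM (1.18 ± 0.06, adjusted p = 5.43e-08), and PNCK on the opposite strand rose by 1.23 ± 0.12.

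Among falls, DSN1, a kinetochore protein, stood at 48.1, 45.8 and 44.2 CPM in Ctrl and 24.2, 25.5 and 25.5 CPM in OHT. Every OHT library was below every Ctrl library (-0.86 ± 0.07, adjusted p = 1.85e-06). GEM, a small GTPase, fell from 55.7 ± 4.4 to 30.8 ± 1.3 CPM (-0.84 ± 0.08, adjusted p = 3.74e-06), and PPP1R15A, the stress-induced GADD34 phosphatase subunit, from 26.95 ± 4.0 to 15.5 ± 0.84 CPM (-0.77 ± 0.10, adjusted p = 1.11e-04). ARRDC3, an arrestin-domain protein, fell (-0.81 ± 0.14), as did the nuclear receptor partner PNRC1 (-0.84 ± 0.12) and FILIP1L (-0.82 ± 0.11). The heat shock protein gene DNAJB4 (-0.79 ± 0.10) and GIPC2 (-0.79 ± 0.10) overlap on the same strand and had nearly the same values, 16.7, 15.4 and 20.6 CPM and 17.3, 15.4 and 21.1 CPM in OHT. With Dox present the changes of MMP17 (1.83 ± 0.12), TAF4B (1.12 ± 0.07), DSN1 (-0.84 ± 0.06) and GEM (-0.85 ± 0.08) had the same sign.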
